A study of Mus musculus with 16 samples.

Results

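Spi1, Cebpa, Cebpb, Cebpd, Maf, Runx1, Mef2c, Klf2 and Klf4 encode transcription factors that build and maintain the macrophage lineage. These 9 genes were taken by name from 18820 measured genes, and each was read by 1 probe set whose only listed gene is that member. RNA came from RAW264.7, an established mouse macrophage-like line, so every group is the same line in culture. There were 4 groups of 4 arrays, each kept for 24 h in vehicle (the control, labelled as ethanol at 0.1% by volume), in docosahexaenoyl serotonin at 1 µM (DHA5HT, a docosahexaenoic acid conjugate of serotonin), in lipopolysaccharide at 1 µg/ml (LPS, a component of the outer wall of Gram-negative bacteria), or in LPS with DHA5HT at the same doses (LPS+DHA5HT). The labels put vehicle with LPS as well, and do not say whether the DHA5HT wells held the same amount of ethanol. Whether arrays stand for separate cultures is not stated, so p values measure the spread between these arrays, which may be technical, and the number of arrays limits the precision.

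Macrophage identity rests on a few factors that bind together at the same enhancers. PU.1, the product of Spi1, opens chromatin at macrophage genes, and C/EBP and RUNX1 proteins bind beside it. Other factors set the state of the cell. C/EBPβ and C/EBPδ are known to be induced by bacterial products and to drive acute-phase and cytokine genes, c-MAF is linked to resident and IL-10-producing macrophages, MEF2C to monocyte and microglial programs, and KLF2 and KLF4 to quiescence and restrained inflammation.

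All values are log2 intensities, so a difference of 1 is a doubling of signal, and group SDs are over 4 arrays. Macrophage markers lay above background in every group (8 of 8, from 8.10 for Mertk to 12.55 for Cd68 as means over all arrays). The lowest group mean was 6.93, for Adgre1 in control, against 10.87 with LPS. With LPS 5 of the 8 rose and 2 fell (limma, adjusted p under 0.05). Markers of T, B, endothelial, fibroblast, epithelial and erythroid cells had a median of 3.66 over 32 genes, with single genes from 2.77 to 5.35, and this median serves as the background level. All 9 members lay above 3.66 on all 16 arrays, between 4.74 and 11.69, although Cebpa and Cebpd had arrays inside the range of those markers. The title of LPS+DHA5HT array 1 names both agents while its treatment label names DHA5HT alone, and the title was followed. On that array Cebpb stood at 9.12 and Mef2c at 9.15, against 8.00 to 8.24 and 10.05 to 10.38 on the DHA5HT arrays and 9.05 to 9.31 and 8.65 to 9.16 over the LPS+DHA5HT group. LPS+DHA5HT array 4 stood apart from the other arrays on the second principal component (22.42 against at most 9.36, a component holding 4.72% of the variance). Without array 1 or array 4 of that group, the number of members past the threshold in each comparison that uses them was the same as with all arrays.

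**Figure D1:**
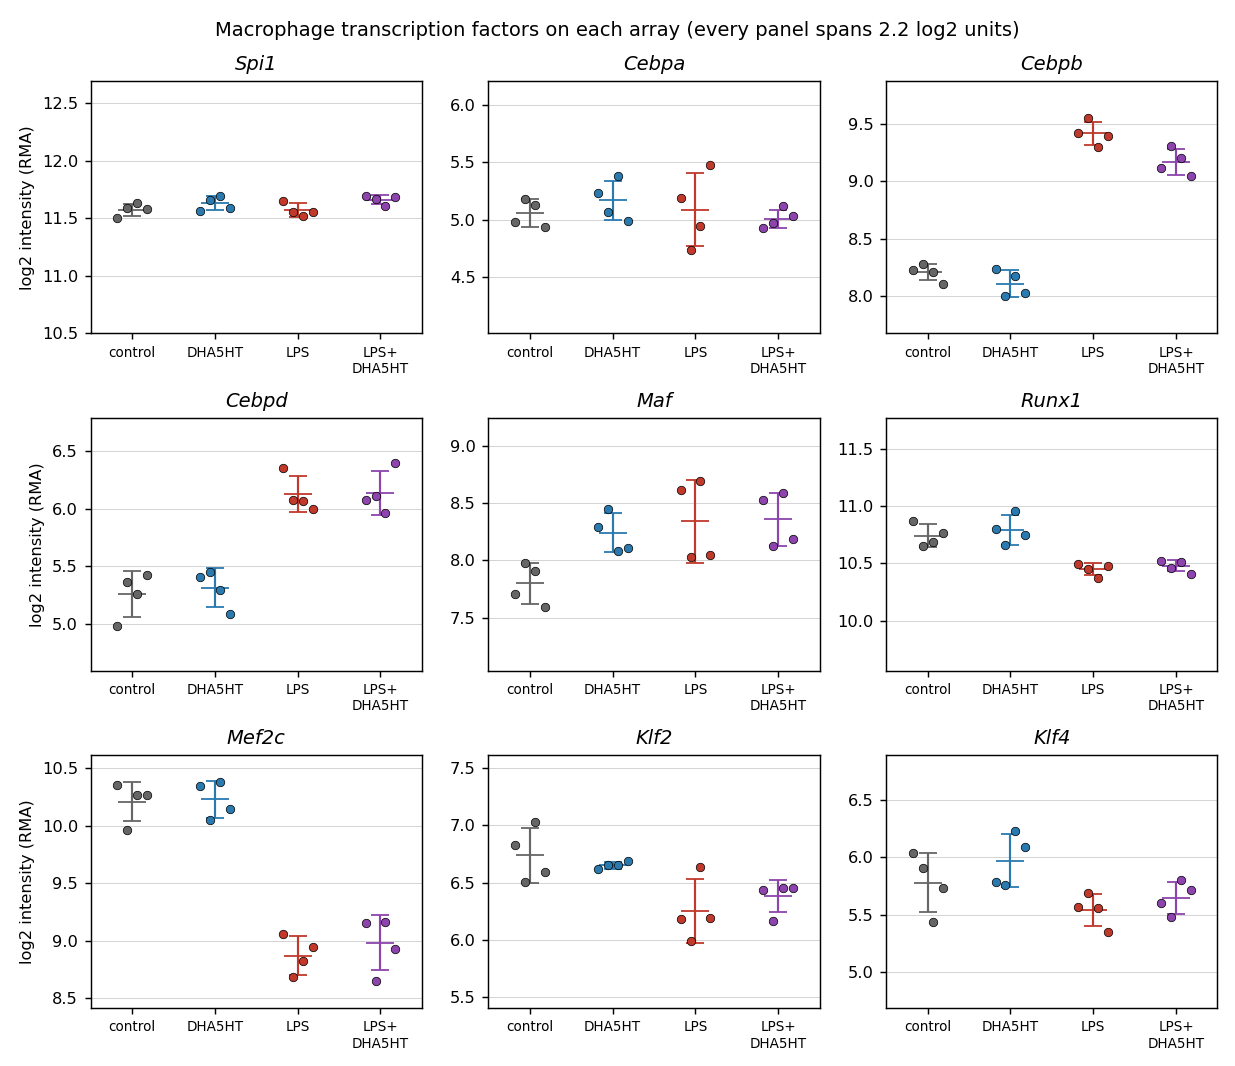
Log2 intensity of each of the 9 genes on every array, by group (points, 4 arrays a group; horizontal bar and whiskers, mean and SD). Cebpb and Cebpd stand higher and Mef2c and Runx1 lower on all LPS and LPS+DHA5HT arrays than on any control or DHA5HT array, while Spi1 lies between 11.50 and 11.69 throughout.

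LPS against control asks how the stimulus alters these factors. Cebpb and Cebpd rose 2.31-fold and 1.83-fold and Maf 1.46-fold, while Mef2c fell 2.53-fold, Klf2 1.40-fold and Runx1 1.23-fold. Spi1, Cebpa and Klf4 did not pass. Thus 3 members rose, 3 fell and 3 did not pass (limma, adjusted p under 0.05 over all 18820 genes). In this comparison 28.4% of all genes passed, 12.6% higher and 15.8% lower. All members but Cebpa averaged above the median gene (5.24). When only the 9410 genes above it were tested, 5262 passed, so 28.4% understates the share among brighter genes. All LPS arrays stood to 1 side of all control arrays for 5 members, 3 higher and 2 lower, and for 29.8% of all genes. The median size of change, ignoring sign, was 0.49 among the members and 0.12 among all genes, dim ones included.

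PU.1 and its partner RUNX1 come first. Spi1 (Entrez gene 20375, chr2:91082374-91115759 on GRCm38.p6, the RefSeq build used for all positions here) read 11.50, 11.59, 11.63 and 11.58 on the control arrays and 11.65, 11.55, 11.52 and 11.55 on the LPS arrays. The groups overlapped, and the LPS change was −0.01 (SE 0.05, 95% interval −0.12 to 0.11, limma adjusted p = 0.944). An LPS change of Spi1 beyond 1.09-fold in either direction lies outside that interval. Runx1 (12394, chr16:92601466-92826074), the DNA-binding subunit of core-binding factor, read 10.87, 10.65, 10.69 and 10.76 in control and 10.49, 10.45, 10.37 and 10.48 with LPS. Every LPS array lay below every control array, a change of −0.30 (SE 0.07, adjusted p = 0.0026). This is a small decrease measured with a small spread, since the SD was 0.10 in control and 0.05 with LPS. Cbfb, which encodes the non-DNA-binding partner of RUNX1, fell by 0.60 (SE 0.07, adjusted p = 4.41e-06).

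The C/EBP genes parted from one another. Cebpb (12608, chr2:167688915-167690432) encodes a basic leucine zipper activator of inflammatory genes and read 8.23, 8.28, 8.21 and 8.11 in control and 9.42, 9.55, 9.30 and 9.40 with LPS. The groups stood more than a log2 unit apart, with a change of 1.21 (SE 0.07, 95% interval 1.05 to 1.37, adjusted p = 1e-09). Cebpd (12609, chr16:15887286-15889545), its acute-phase relative, went from 4.98, 5.36, 5.26 and 5.42 to 6.36, 6.08, 6.07 and 6.00. All LPS arrays were higher, by 0.87 on average (SE 0.11, adjusted p = 1.1e-05). Cebpa (12606, chr7:35119293-35121928), the family member that directs myeloid progenitors, read 4.98, 5.18, 5.13 and 4.94 in control and 5.19, 4.74, 4.95 and 5.48 with LPS. Its LPS arrays spread on both sides of the control arrays (SD 0.32 against 0.12) and the change was 0.03 (95% interval −0.23 to 0.30, adjusted p = 0.887).

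Because Cebpb and Cebpa took different courses, the 250 bases before the annotated start of each are shown, from RefSeq on build GRCm38.p6, plus strand, with bases that match a searched motif in capitals. The Cebpb window is chr2:167688665-167688914 and the Cebpa window chr7:35119043-35119292.
Cebpb: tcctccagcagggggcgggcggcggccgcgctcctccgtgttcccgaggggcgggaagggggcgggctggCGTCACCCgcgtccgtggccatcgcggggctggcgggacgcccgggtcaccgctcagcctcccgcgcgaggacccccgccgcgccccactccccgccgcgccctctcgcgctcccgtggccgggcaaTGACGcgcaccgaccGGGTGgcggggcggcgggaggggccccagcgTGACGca
Cebpa: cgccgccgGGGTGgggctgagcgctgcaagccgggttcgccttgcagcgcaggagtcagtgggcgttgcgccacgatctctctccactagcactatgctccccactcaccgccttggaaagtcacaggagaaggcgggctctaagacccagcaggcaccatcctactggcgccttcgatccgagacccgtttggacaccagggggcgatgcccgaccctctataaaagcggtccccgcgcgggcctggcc
Both strands were searched for 8 short consensus motifs: C/EBP (TTNNGCAA), the cyclic AMP response core (TGACG), the CACCC box bound by KLF proteins, MEF2 (CTA and TAG with any 4 bases between), PU.1 (GAGGAA), RUNX (TGTGGT), NF-kB (GGGA and TTTCC with any 1 base between) and STAT (TTCNNNGAA). The Cebpb window held the TGACG core or its complement 3 times, starting at −180, −53 and −7 (the base just before the start is −1), and CACCC or its complement at −177 and −38, the first of these overlapping a TGACG core. The Cebpa window held a single match, the CACCC complement at −242. Of 32851 windows of this length in the same table, 17.8% held the TGACG core and 52% the CACCC box at least once. The share with 3 matches was not counted. Base composition differed as well, with 81.6% G or C in the Cebpb window, 66.4% in that of Cebpa and a median of 52.4% over all windows. A match describes letters in this window and is not a measured binding site. Promoter sequences of 6 of the 9 members were found in the table, and those of Spi1, Cebpd and Maf were not used here.

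Maf and Mef2c moved in opposite directions. Maf (17132, chr8:115703253-115706894) encodes a large basic leucine zipper factor and read 7.71, 7.98, 7.91 and 7.59 in control and 8.61, 8.03, 8.69 and 8.05 with LPS. All LPS arrays lay above all control arrays, 8.03 against 7.98 in the closest case, and the mean change was 0.55 (SE 0.15, adjusted p = 0.0111). The LPS arrays fell into a higher pair, numbers 1 and 3, and a lower pair, numbers 2 and 4. In the LPS+DHA5HT group, which shares no array with it, the same numbers split the same way, with 8.53 and 8.59 for 1 and 3 and 8.13 and 8.19 for 2 and 4. The control and DHA5HT arrays did not split by those numbers, and what the numbers stand for is not given in the labels.

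Mef2c (17260, chr13:83504017-83667079), a MADS-box factor restrained by class IIa histone deacetylases, read 10.36, 9.96, 10.27 and 10.27 in control and 9.06, 8.68, 8.82 and 8.94 with LPS. This was the largest change among the 9 genes, −1.34 (SE 0.12, 95% interval −1.59 to −1.09, adjusted p = 1.1e-07), and by size it ranked 319 of 18820 genes. In the same cells the deacetylase gene Hdac5 fell by 0.93 (SE 0.07, adjusted p = 3e-08) and the relative Mef2d rose by 0.44 (SE 0.06, adjusted p = 1.55e-05). Because RNA was taken from whole cultures, a lower signal in every cell and its loss from some cells cannot be told apart for Mef2c or any other member.

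The Krüppel-like factor genes were lower on average with LPS, but only Klf2 passed. Klf2 (16598, chr8:72319062-72321654) read 6.83, 6.51, 7.03 and 6.59 in control and 6.18, 5.99, 6.64 and 6.19 with LPS. The groups overlapped, because LPS array 3 stood above control arrays 2 and 4, and the change was −0.49 (SE 0.12, adjusted p = 0.00557). Klf4 (16600, chr4:55527137-55532475) read 6.04, 5.91, 5.44 and 5.73 in control and 5.57, 5.69, 5.56 and 5.35 with LPS. Its change was −0.24 (SE 0.13, 95% interval −0.50 to 0.03, adjusted p = 0.197). Without control array 3, the lowest of its group, the Klf4 change was −0.35 with an adjusted p of 0.0405, so 1 array decided whether it passed.

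MEF2 proteins are known as activators of Klf2 in endothelial cells. Mef2c and Klf2 both fell with LPS here, and a link between them was not tested. The upstream windows of Klf2 (chr8:72318812-72319061, plus strand) and Klf4 (chr4:55532476-55532725, minus strand) are shown in the same way.
Klf2: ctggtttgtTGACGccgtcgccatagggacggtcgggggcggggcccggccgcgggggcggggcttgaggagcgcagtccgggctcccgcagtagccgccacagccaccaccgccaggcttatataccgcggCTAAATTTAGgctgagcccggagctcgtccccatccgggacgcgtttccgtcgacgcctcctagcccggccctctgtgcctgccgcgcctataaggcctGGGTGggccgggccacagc
Klf4: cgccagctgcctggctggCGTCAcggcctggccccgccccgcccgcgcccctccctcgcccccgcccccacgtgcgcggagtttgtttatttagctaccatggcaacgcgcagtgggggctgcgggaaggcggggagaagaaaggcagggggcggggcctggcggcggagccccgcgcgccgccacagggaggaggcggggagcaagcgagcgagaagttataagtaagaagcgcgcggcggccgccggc
The Klf2 window held the MEF2 letters from −118 to −109 (CTAAATTTAG), a match found in 3.2% of all windows. It also held the TGACG core at −241 and the CACCC complement at −19. The Klf4 window held only the complement of that core at −232. The other windows of members (1 each for Cebpb and Cebpa, 2 for Runx1, 3 for Mef2c) did not contain the MEF2 letters, and these data do not measure binding at any of them.

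LPS was also given in the presence of DHA5HT, and that comparison (LPS+DHA5HT against DHA5HT) shares no array with LPS against control. Cebpb and Cebpd rose again and Mef2c and Runx1 fell again, 4 of the 9 members, where 28.1% of all genes passed, 12.4% higher and 15.7% lower. When only the 9410 genes above the median gene were tested, 5268 passed, Klf4 among them (limma adjusted p = 0.0419). Maf and Klf2, which passed without DHA5HT, did not pass here, although the Klf2 call depended on the fit. The median size of change was 0.32 among the members, against 0.12 among all genes, dim ones included.

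Cebpb read 8.24, 8.00, 8.18 and 8.03 with DHA5HT and 9.12, 9.31, 9.20 and 9.05 with both agents, a change of 1.06 (SE 0.07, adjusted p = 6.69e-09). Cebpd went from 5.41, 5.45, 5.29 and 5.08 to 6.08, 6.11, 5.96 and 6.40, a change of 0.83 (SE 0.11, adjusted p = 2.06e-05). For both C/EBP genes the groups were fully separate. Mef2c went from 10.35, 10.05, 10.38 and 10.15 to 9.15, 8.65, 9.16 and 8.93, a change of −1.26 (SE 0.12, adjusted p = 2.71e-07). Runx1 went from 10.80, 10.66, 10.96 and 10.75 to 10.52, 10.46, 10.51 and 10.41, a change of −0.32 (SE 0.07, adjusted p = 0.00145). These groups did not overlap either. With Klf2, described next, 5 members were fully separate here, as were 28.5% of all genes.

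Klf2 with both agents read 6.44, 6.17, 6.45 and 6.45, below all DHA5HT arrays (6.62, 6.65, 6.65 and 6.69), and its change of −0.27 did not pass (SE 0.12, adjusted p = 0.121). Fitted on these 8 arrays alone, the same change passed (adjusted p = 0.0205), and with the replicate number as a block it passed as well (adjusted p = 0.0422). Array by array of the same number, Klf2 was lower with both agents by 0.18 to 0.48, a direction fixed by the groups being fully separate. Same-numbered arrays did not count as paired in this comparison. Klf4 went from 5.79, 5.76, 6.23 and 6.09 to 5.60, 5.48, 5.80 and 5.72, with array 3 of the second group above arrays 1 and 2 of the first, and did not pass either (−0.32, SE 0.13, adjusted p = 0.0751). Without DHA5HT array 2 the Klf4 change was −0.39 with an adjusted p of 0.0421. Spi1 read 11.56, 11.66, 11.69 and 11.59 with DHA5HT and 11.69, 11.67, 11.61 and 11.68 with both, and did not pass (0.04, 95% interval −0.08 to 0.15). Cebpa read 5.23, 5.07, 5.38 and 4.99 with DHA5HT and 4.93, 4.97, 5.12 and 5.03 with both, and did not pass (−0.16, 95% interval −0.42 to 0.10). The arrays of both genes overlapped between the groups, as they did without DHA5HT. Maf went from 8.29, 8.45, 8.08 and 8.11 to 8.53, 8.13, 8.59 and 8.19, with overlapping groups and a change of 0.12 (95% interval −0.20 to 0.44, adjusted p = 0.646).

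**Figure D2:**
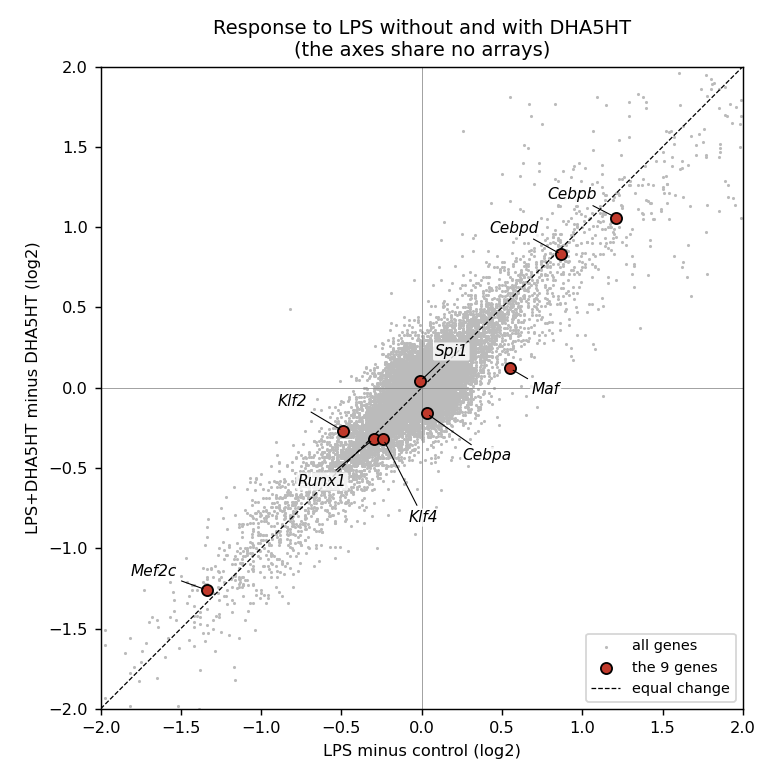
Log2 change with LPS in the absence (x) and presence (y) of DHA5HT for all genes (grey) and the 9 genes (red), with the line of equal change dashed; 157 genes lie beyond the axes. Mef2c (−1.34 and −1.26), Cebpb (1.21 and 1.06) and Cebpd (0.87 and 0.83) lie close to the line, and Maf (0.55 and 0.12) lies below it.

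The effect of DHA5HT on cells given LPS was compared next (LPS+DHA5HT against LPS). None of the 9 members passed (limma, smallest adjusted p = 0.107), 1 had an unadjusted p under 0.05, and 1.79% of all genes passed. No member was fully separate between the groups, while 7.89% of all genes were. The member with the smallest p was Cebpb, which went from 9.42, 9.55, 9.30 and 9.40 with LPS to 9.12, 9.31, 9.20 and 9.05 with both agents. The groups overlapped by a single pair of arrays, 9.31 against 9.30, and the change was −0.25 (SE 0.07, 95% interval −0.41 to −0.09, unadjusted p = 0.00381, adjusted p = 0.107). Array by array of the same number, Cebpb was lower with DHA5HT in 4 of 4 cases, by 0.10 to 0.35. That count follows from the near separation, since the overlapping arrays had different numbers. Spi1 was higher in 4 of 4, by 0.04 to 0.13, and also in 4 of 4 for DHA5HT against control, by 0.01 to 0.07, and passed in neither comparison. When testing was restricted to the 9410 genes above the median gene, with the same change, the adjusted p of Cebpb was 0.0482. With the replicate number as a block 3.44% of all genes passed and none of the members did.

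For the other members, the 95% intervals describe the DHA5HT effect in LPS-treated cells over these arrays. They come gene by gene from the fit without pairing. Changes ran from −0.25 for Cebpb to 0.13 for Klf2, and no member's 95% interval reached beyond 0.41 in size. The narrowest intervals were those of Spi1 (0.10, −0.02 to 0.21), Runx1 (0.03, −0.12 to 0.17) and Cebpb. Mef2c changed by 0.10 (−0.15 to 0.35), Cebpd by 0.01 (−0.23 to 0.25), Maf by 0.01 (−0.31 to 0.34), Klf2 by 0.13 (−0.13 to 0.39), Klf4 by 0.11 (−0.16 to 0.37) and Cebpa by −0.08 (−0.34 to 0.18). Failing the threshold does not show that these levels were equal.

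DHA5HT without LPS asks what the conjugate does to resting cells. Here too 0 of the 9 members passed in limma, 1 had an unadjusted p under 0.05, and 0.600% of all genes passed (0.951% with the replicate number as a block, again with no member). Maf was that member. It read 7.71, 7.98, 7.91 and 7.59 in control and 8.29, 8.45, 8.08 and 8.11 with DHA5HT, a change of 0.44 (SE 0.15, 95% interval 0.12 to 0.76, unadjusted p = 0.0108, adjusted p = 0.317). All DHA5HT arrays lay above all control arrays, which was so, in either direction, for 5.89% of all genes. By size the change ranked 156 of 18820. The remaining members changed by −0.10 (Cebpb) to 0.19 (Klf4), with adjusted p from 0.689 to 0.979. Klf2 was unusually even in this group, at 6.62 to 6.69 with an SD of 0.03, against 0.24 in control.

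The difference between the DHA5HT effects with and without LPS equals the difference between the LPS responses with and without DHA5HT. No member passed (limma, adjusted p 0.692 to 0.984), none had an unadjusted p under 0.05, and 0.329% of all genes passed. Maf had the largest value, −0.43 (SE 0.22, 95% interval −0.88 to 0.03, adjusted p = 0.692), so its passing with LPS alone and not with both agents was not shown to be a difference. Klf2 differed by 0.22 (95% interval −0.15 to 0.59), Cebpb by −0.15 (−0.37 to 0.07), Mef2c by 0.08 (−0.27 to 0.44) and Cebpd by −0.04 (−0.38 to 0.30).

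**Figure D3:**
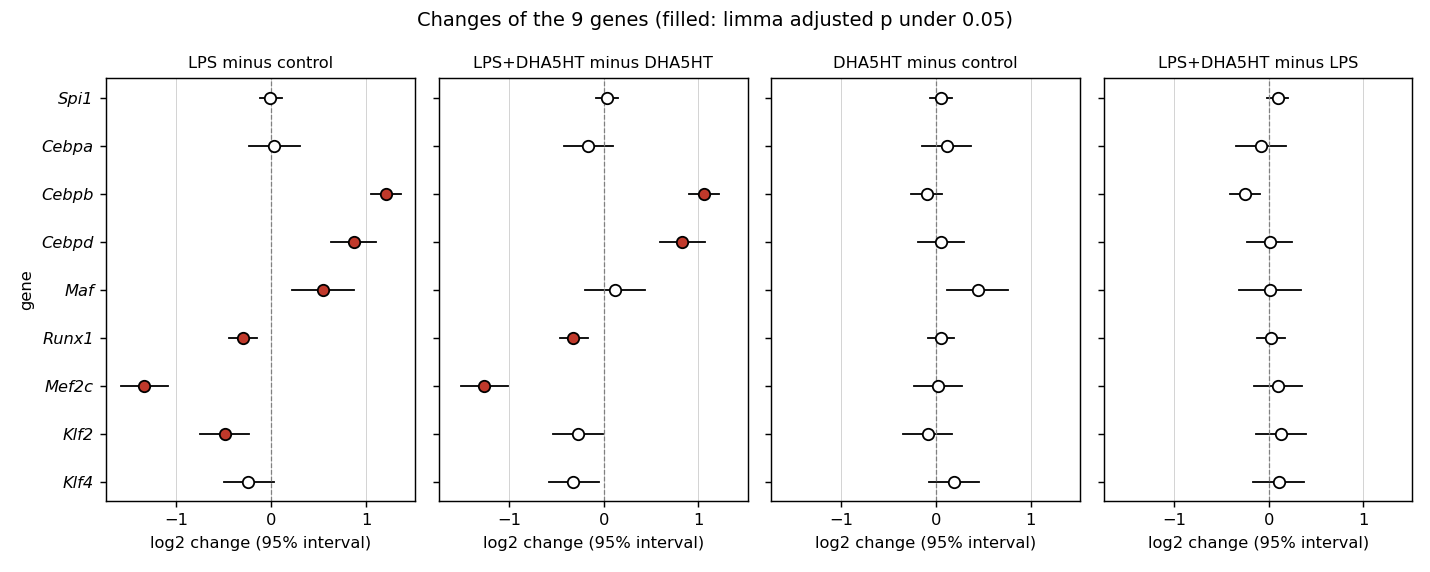
Log2 change of each gene in 4 comparisons (circles, estimates; lines, 95% intervals; filled circles passed limma's adjusted p of 0.05; dashed line, no change). There are 6 filled circles for LPS against control, 4 for LPS with DHA5HT present and none in either DHA5HT comparison.

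Genes whose profile over the 16 arrays lay closest to each member that passed were found by the root mean square difference of gene-centred values. Closest to Cebpb was Lrrc8c, a volume-regulated anion channel subunit, at 0.0942 log2 units, followed by Nfkbib and Irak2, an inhibitor of NF-kB and a kinase of Toll-like receptor signalling, both at 0.108. Nearest to Mef2c were Lmo2, a hematopoietic transcription cofactor (0.127), the mitotic kinesin gene Kif15 (0.134) and the cyclin gene Ccnd1 (0.138). Lmo2 changed by −1.12 with LPS and −1.24 with DHA5HT present. Runx1 lay closest to Exoc4 (0.0525), Cdk6 (0.0548) and Senp1 (0.0577), and Cebpd to Cptp (0.135), Pin4 (0.147) and Gstt3 (0.148). For Klf2 the nearest were Krt80 (0.131), Arid4a (0.132) and Pias2 (0.136), where the spread of Klf2 itself over the arrays was 0.261. Krt80 had group means of 4.60 to 4.92, within the 2.77 to 5.35 of the background markers. For Maf the nearest was Wdr77 at 0.191, beside a spread of 0.312. Relative to their spread, neither Klf2 nor Maf had a neighbour as close as that of Mef2c (0.127 beside 0.67). Likeness was measured on the same 16 arrays and describes these profiles only.

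**Figure D4:**
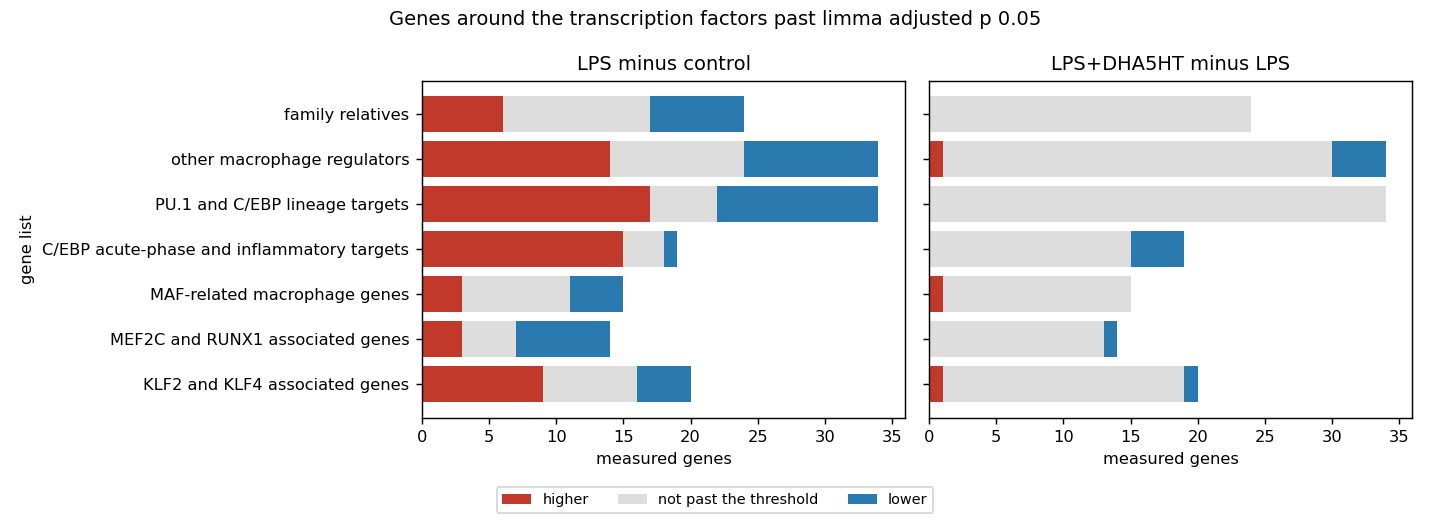
Number of measured genes higher, lower or not past limma's adjusted p of 0.05 in 7 lists related to the factors, for LPS against control and for DHA5HT in LPS-treated cells. Changes with LPS run both ways in each list (15 higher and 1 lower among C/EBP inflammatory targets), and the family relatives and lineage targets have none with DHA5HT in LPS-treated cells.

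Relatives of the 9 factors from the same protein families moved both ways with LPS. For the lists that follow, 12.6% of all genes rose and 15.8% fell with LPS, and 1.79% passed with DHA5HT in LPS-treated cells. Thus 0 or 1 call among 14 to 34 genes is near the background in the second comparison. When only the 9410 genes above the median gene were tested, 5262 passed with LPS and 557 with DHA5HT in LPS-treated cells. Of 24 measured relatives 6 rose and 7 fell with LPS, with a list median of 0.05 against 0.00 over all genes. Klf3 rose by 0.69 and the small MAF gene Maff by 1.12, while the ETS genes Ets1 and Fli1 fell by 0.97 and 0.57. With DHA5HT in LPS-treated cells 0 of 24 relatives passed, where 1.79% of all genes did. Of 34 other regulators of macrophages 14 rose and 10 fell with LPS, among them Egr1 (2.56), Junb (1.40) and Stat3 (0.59) upward and Lmo2 (−1.12), Tfeb (−0.89) and Jun (−0.43) downward. DHA5HT in LPS-treated cells lowered 4 of these 34 and raised 1. Fos, an immediate early AP-1 subunit, fell by 0.81 (adjusted p = 0.0058) whichever array was left out. Egr1 fell by 0.89 (adjusted p = 0.0199) and Junb by 0.40 (adjusted p = 0.0262), and each lost its call in 4 of 8 leave-outs. With single arrays left out the list counted 1 to 4 lower and 0 or 1 higher.

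Lineage genes known to be driven by PU.1 and C/EBP split as well. Of 34 measured targets 17 rose and 12 fell with LPS, beside 12.6% and 15.8% of all genes, with a list median of 0.15 (15 to 16 and 8 to 10 with 1 array left out). Adgre1, which encodes the macrophage antigen F4/80, rose by 3.94, the interleukin-1 receptor antagonist gene Il1rn by 2.22 and the inhibitory Fc receptor gene Fcgr2b by 0.74. The fractalkine receptor gene Cx3cr1 fell by 3.52, the kinase gene Fes by 0.65 and Csf1r, the receptor of the macrophage growth factor, by 0.20. With DHA5HT in LPS-treated cells 0 of these 34 passed, which is near the background of 1.79%. Of 19 acute-phase and inflammatory C/EBP targets 15 rose with LPS, led by smallest p by Il6 (7.89), Il1b (8.10) and Saa3 (7.56), and Il10 fell by 0.43, between levels below 3.66 (3.61 in control, 3.18 with LPS), a call lost without control array 1. Among those 19, DHA5HT in LPS-treated cells lowered 4 (2 to 4 with 1 array left out), including Il6 (−0.66, adjusted p = 0.00278) and Csf3 (−1.45, adjusted p = 0.00366), and Marco (−0.96, adjusted p = 0.0214), which lost its call without LPS array 2 or 3. The Cebpb value in that comparison was −0.25 and that of Cebpd 0.01, given above.

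Genes linked to the remaining members were fewer. In the MAF-related list 3 of 15 rose and 4 fell with LPS (2 to 3 and 3 to 5 with 1 array left out). The engulfment receptor gene Mertk (1.42), the scavenger receptor gene Stab1 (0.27) and the heme oxygenase gene Hmox1 (0.40, kept in 2 of 8 leave-outs) went upward. The folate receptor gene Folr2 (−0.45), the iron exporter gene Slc40a1 (−0.72) and Il10 (−0.43, below background as given above) went downward. Folr2 averaged 4.26 in control and 3.81 with LPS, the latter near the background of 3.66. With DHA5HT in LPS-treated cells Slc40a1 was the only one of the 15 to pass, rising by 0.77 (adjusted p = 0.0499, kept in 1 of 8 leave-outs). Mrc1, the mannose receptor gene, rose from 3.40 to 4.13 with DHA5HT alone, levels near the background of 3.66 (change 0.72, adjusted p = 0.000719), beside the Maf value of 0.44 that did not pass. In LPS-treated cells the Mrc1 change with DHA5HT was 0.01 (adjusted p = 0.99), and the difference of these effects was −0.72 (SE 0.14, adjusted p = 0.0349), a call kept in 3 of 16 leave-outs with values from −0.79 to −0.62. By list, DHA5HT alone also lowered 2 of 19 C/EBP inflammatory targets (2 with any 1 array left out). It lowered 2 of 20 genes associated with KLF2 and KLF4 (1 or 2) and 1 of 34 lineage targets (0 or 1). Over all genes 0.600% passed there. Among the KLF genes Ptgs2 fell from 10.13 to 9.21 (−0.92, limma adjusted p = 0.00572). In the list of genes associated with MEF2C and RUNX1 3 of 14 rose and 7 fell with LPS. Csf2, the GM-CSF gene, rose by 5.76, the integrin gene Itgal by 1.63 and the ERK5 gene Mapk7 by 0.28, while Hdac5 and Cbfb fell as above and the p38 kinase gene Mapk14 fell by 0.52. With DHA5HT in LPS-treated cells Itgal alone of the 14 passed, falling by 0.44 (adjusted p = 0.0252, kept in 4 of 8 leave-outs). Among 20 genes associated with KLF2 and KLF4 9 rose and 4 fell, with Ccl2 (2.99), Ptgs2 (2.92) and Nos2 (4.37) upward and Ccnd1 (−1.23), the MEK5 gene Map2k5 (−0.54) and the sphingosine-1-phosphate receptor gene S1pr1 (−1.11) downward. With DHA5HT in LPS-treated cells Map2k5 rose by 0.28 (adjusted p = 0.0296) and Nos2 fell by 1.02 (adjusted p = 0.0485), each a call kept in 1 of 8 leave-outs.

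Markers of other cell types were set beside these changes. RAW264.7 cells can develop into osteoclasts, and of 8 osteoclast markers 4 lay at or below 3.66, none rose and 2 fell with LPS, Dcstamp by 1.17 and Nfatc1 by 0.89 (named because they passed). The log2 of the summed osteoclast markers was 9.03 to 9.08 in control, 8.94 to 9.21 with DHA5HT, 8.17 to 8.33 with LPS and 8.03 to 8.26 with both. The sum was thus lower with LPS, as were Mef2c, Runx1 and Klf2. It mostly reflects Dcstamp and Nfatc1 (8.08 and 7.56 in control), since the other osteoclast markers averaged at most 4.63 there (Ocstamp). Of 6 endothelial markers, of interest because Klf2 and Mef2c are also endothelial genes, Pecam1 rose by 1.36 (adjusted p = 5.45e-09) and Emcn fell by 0.19 (adjusted p = 0.0415) with LPS. With DHA5HT in LPS-treated cells 1 of these 6 passed, downward, where 1.79% of all genes passed. Pecam1 averaged 5.54 with LPS and 4.72 with both agents. No marker in any other list passed in that comparison. Kdr, Tek and Emcn lay at or below 3.66, while Cdh5 (5.16 to 5.42 as group means), Vwf (4.91 to 5.28) and Pecam1 (4.18 to 5.54) lay above it. The log2 of the summed endothelial markers was 6.84 to 6.90 in control, 6.85 to 6.99 with DHA5HT, 7.18 to 7.20 with LPS and 6.95 to 7.06 with both.

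Neutrophil and mast cell markers had higher sums with LPS, as had Cebpb and Cebpd. The log2 sum of 5 neutrophil markers was 6.39 to 6.45 in control, 6.39 to 6.55 with DHA5HT, 6.64 to 6.98 with LPS and 6.71 to 7.02 with both, and of these markers S100a8 alone passed (0.80, adjusted p = 9.34e-05). Elane was the only one of the 5 at or below 3.66. The log2 sum of 6 mast cell markers was 6.04 to 6.15, 6.11 to 6.25, 6.31 to 6.51 and 6.27 to 6.38 in the same order of groups, and Kit alone passed (0.86, adjusted p = 1.58e-06), while Cpa3, Mcpt4 and Fcer1a lay at or below 3.66. In the remaining lists Cd4 of the T cell markers (−0.39) and Pax5 of the B cell markers (−0.41) fell with LPS. Dcn of the fibroblast markers (0.52) rose, and no dendritic, epithelial or erythroid marker passed (limma, adjusted p under 0.05). The means of Pax5 and Dcn lay below the background of 3.66 in every group. The mean of Cd4 lay just above 3.66 in control and below it with LPS. The part of any of these markers in the results above was not tested.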

How the data were processed

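RNA was measured on 16 Affymetrix whole-transcript arrays, 4 a group, with groups taken from the sample titles. The authors deposited log2 values made with RMA per the submitters' processing notes, which corrects background, normalizes between arrays and gives 1 value per probe set, so differences between arrays in total signal are removed. The RMA version, annotation, filters and genome build are not given in the sources used here. Of 35556 probe sets, 21218 named exactly 1 gene in the array's gene table, 1881 several and 12457 were not listed. The brightest probe set stood for a gene, which gave 18820 genes, 18790 of them in the RefSeq table (GRCm38.p6). Each member had a single probe set, so isoforms and start sites could not be separated.

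Each gene was fitted by limma 3.58.1 under R 4.3.3 with a mean for each of the 4 groups (12 residual degrees of freedom) and moderated by eBayes, two-sided, with Benjamini-Hochberg adjustment over all 18820 genes in each of 5 comparisons and a threshold of 0.05. The procedure was tested on simulated data. Replicate numbers of the titles were checked for pairing: deviations of same-numbered arrays correlated at 0.131 to 0.183 for DHA5HT against control and 0.116 to 0.205 for DHA5HT in LPS-treated cells, which counts as pairing (every value over 0.1). They correlated at 0.099 to 0.131 for LPS against control and 0.07 to 0.232 for LPS+DHA5HT against DHA5HT, which does not. The value of 0.099 lies just under this cut, and in LPS against control all 4 pairs correlated best with their own number. Values are from the fit without pairing unless the block is named.

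The members and lists were chosen with earlier results of these data known, so counts in them are descriptions. Genes were named by a rule: all members, up to 3 genes higher and 3 lower by smallest p in each list for LPS, up to 3 per list past the threshold for DHA5HT in LPS-treated cells or for the difference of effects, and the 3 genes of most like profile. Cell type markers stand outside this rule and were named after their values were seen. Members were left out of the other lists. Other settings tried were a filter on dim genes, an intensity trend, the replicate block, quantile normalization applied again, centring, all probe sets, array weights, the compared arrays alone, other thresholds and leaving out each array. Figures used matplotlib 3.10.9 in Python 3.11.15.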

Additional observations from a re-analysis of the deposited data

Results flagged for a closer look

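Klf2 on LPS+DHA5HT array 2 stood at 6.17, far from the 6.44, 6.45 and 6.45 of the rest of its group, and the gap took up most of the group's range. It was the only such array in 36 groups of 4 values (9 genes in 4 groups), where chance flags about 1 in 20. Without that array the members past the threshold numbered 4 in LPS+DHA5HT against DHA5HT and 0 in LPS+DHA5HT against LPS, as with it.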

How the results depend on the processing

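The number of members past the threshold stayed within 1.5 times its value in all settings run but one. Testing only genes above the median gene raised it from 0 to 1 for DHA5HT in LPS-treated cells (Cebpb, −0.25, adjusted p = 0.0482), where 557 of 9410 genes passed. Leaving out 1 array gave 6 to 7 members for LPS against control, 4 to 5 for LPS+DHA5HT against DHA5HT and 0 in the other comparisons. Of 868 single-gene values under the alternatives, 860 kept their side of the threshold, 7 gained a call and 1 lost it, and no called value changed sign. The gains were of Klf4 and Klf2 for LPS and of Cebpb as above, and the loss was of Maf for LPS at a threshold of 0.01 (adjusted p = 0.0111). With the replicate block Klf2 passed for LPS+DHA5HT against DHA5HT (−0.27, adjusted p = 0.0422; 0.0205 on the compared arrays alone), giving 5 members there, and 6 members passed for LPS against control. The block changed no other call of a member. It raised the genes called from 113 to 179 for DHA5HT against control, from 337 to 647 for DHA5HT in LPS-treated cells and from 62 to 96 for the difference of effects. In LPS against control every array correlated best with its own number in 4 of 4 pairs, and in LPS+DHA5HT against DHA5HT in 2 of 4. Calls over all genes moved by over 1.5 times in several more settings: for DHA5HT in LPS-treated cells they ran from 81 (threshold 0.01) to 647, with 86 on the compared arrays alone, 139 with all probe sets, and 143 to 289 with 1 array left out. For the difference of effects they ran from 28 (threshold 0.01, and all probe sets) to 96, and from 34 to 62 with 1 array left out. For DHA5HT against control they ran from 77 to 179. No other probe set of a member could be tried, since each has 1, and the difference of effects uses all 16 arrays, so it has no fit on fewer groups. The causes were not tested.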
